A study of Mus musculus with 4 samples.

Results

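The axon guidance ligands and receptors are 67 of the 21827 genes analysed in the sorted retinal cells, and they were taken by symbol alone. They are the Eph receptors, the ephrins, the semaphorins, the plexins and neuropilins, the Slits and Robos, the netrins Ntn1 and Ntn4, and their receptors Dcc and Unc5a to Unc5d. Of the 67 genes, 33 encode ligands and 34 encode receptors. RNA was sequenced from retinas of pHes1-EGFP mice, in which a promoter fragment of Hes1 drives a destabilized EGFP, and the labels give the strain as FVB/N. The mice had no particular treatment, and cells were sorted into EGFP-positive cells (pHes1_EPCs) and EGFP-negative cells (pHes1_ENCs) at postnatal day 1 (P1) and postnatal day 4 (P4). Each fraction at each age gave 1 library, so there are 4 libraries, and the sources used here do not say how many animals were pooled in each. With 1 library per group no test between groups was possible, and every difference describes these libraries. Because the sort follows reporter activity, pHes1_EPCs are the cells in which the Hes1 promoter fragment is active, and pHes1_ENCs are all other retinal cells.

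Guidance ligands are secreted or held on the cell surface, and they steer growing axons and migrating cells by attraction or repulsion when they meet their receptors on another cell. Ephrins bind Eph receptor tyrosine kinases, semaphorins act through plexins with or without neuropilins, Slits act through Robos, and netrins act through Dcc and the Unc5 receptors. In the retina these families are known for guiding ganglion cell axons out of the eye and to their targets, and for the layering of the neurites of other retinal neurons. Ephrins and Eph receptors are also known for graded expression across the developing retina.

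The level of a gene is given as FPKM, the fragments mapped to its transcripts divided by their length and by the size of the library. Differences were taken between libraries on the scale of log2(FPKM + 1), and a gene is called higher or lower where this difference is beyond 1 or -1, which is 2-fold. The ratio of 2 FPKM is given with the range from the 95% intervals deposited with the values, from lower bound over upper bound to upper over lower, and this range covers counting error only. Some FPKM lay outside their own interval: 2 members in P1 pHes1_ENCs, 2 in P1 pHes1_EPCs, 3 in P4 pHes1_ENCs and 0 in P4 pHes1_EPCs. Over all genes this was so for 8.84% to 10.2% per library. Epha8 in P1 pHes1_ENCs, for example, had 114.4 with an upper bound of 113.1. Sema4d in P1 pHes1_EPCs had 73.9 with an upper bound of 73.2. Among the 67 members, 56 reached an FPKM of 1 in at least 1 library and 37 reached it in all 4. The other 11 (Epha1, Epha6, Sema3a, Sema3c, Sema3d, Sema6d, Plxnb3, Slit3, Robo4, Unc5d and Ntn1) had an FPKM of at most 0.933 in any library.

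The FPKM of all genes summed to 277421 to 371999 per library, and the highest of these sums was that of P4 pHes1_EPCs. Hes1 had an FPKM of 16.6 in P1 pHes1_ENCs and 105 in P1 pHes1_EPCs, and of 3.59 and 93.5 at P4. The summed FPKM of 9 Müller glia markers was 485 in P1 pHes1_ENCs, 1394 in P1 pHes1_EPCs, 333 in P4 pHes1_ENCs and 2483 in P4 pHes1_EPCs, with Aqp4 at no more than 0.395 in any of them. In the same order the sum was 182, 756, 22.4 and 274 for 8 genes of cycling cells, and 565, 141, 3290 and 744 for 6 genes of rods. It was 146, 37.1, 89.7 and 37.3 for 9 genes of amacrine and horizontal cells, and 47.9, 24.9, 16.9 and 10.4 for 11 genes of ganglion cells. Slc6a9 alone had 62.6 of the 89.7 in P4 pHes1_ENCs. Of the rod genes, Gnb1 alone had 114 of the 141 in P1 pHes1_EPCs and 155 of the 565 in P1 pHes1_ENCs. Pigment epithelium genes (5 genes) summed to 58.9 in P4 pHes1_EPCs and to 3.25 to 7.16 in the other libraries, and red blood cell genes (3 genes) summed to 108 and 322 in pHes1_ENCs and to 0.306 and 3.79 in pHes1_EPCs. The part of these markers in the differences of the guidance genes was not tested, and in bulk RNA fewer cells of a type and less RNA per cell cannot be told apart.

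At P1, 12 guidance genes were higher in pHes1_EPCs than in pHes1_ENCs and 21 were lower, which is 17.9% and 31.3% of the 67. Over all 21827 genes the same rule called 6.1% higher and 6.79% lower, and over the 12940 genes that reached an FPKM of 1 in any library it called 10.3% and 11.5%. At P4 the balance was the other way, with 23 guidance genes higher in pHes1_EPCs (34.3%) and 8 lower (11.9%). The shares over all genes at P4 were 9.85% and 5.42%, and those over the genes reaching an FPKM of 1 were 16.6% and 9.15%. When every library was rescaled to the same total FPKM, the P4 split became 21 higher and 13 lower. That total lay above every deposited sum, so the 1 added before log2 also weighed less in this setting. With median-of-ratios or quantile scaling the P4 split was 22 and 10. The median difference of the members was -0.18 at P1 and 0.04 at P4, and that of the genes reaching an FPKM of 1 was 0.02 and 0.15. The ratio range excluded 1 for all 33 members called at P1 and for all 31 called at P4. Called or not, it excluded 1 for 57 of the 67 members at P1 and for 53 at P4, so it adds little to the calls.

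**Figure D1:**
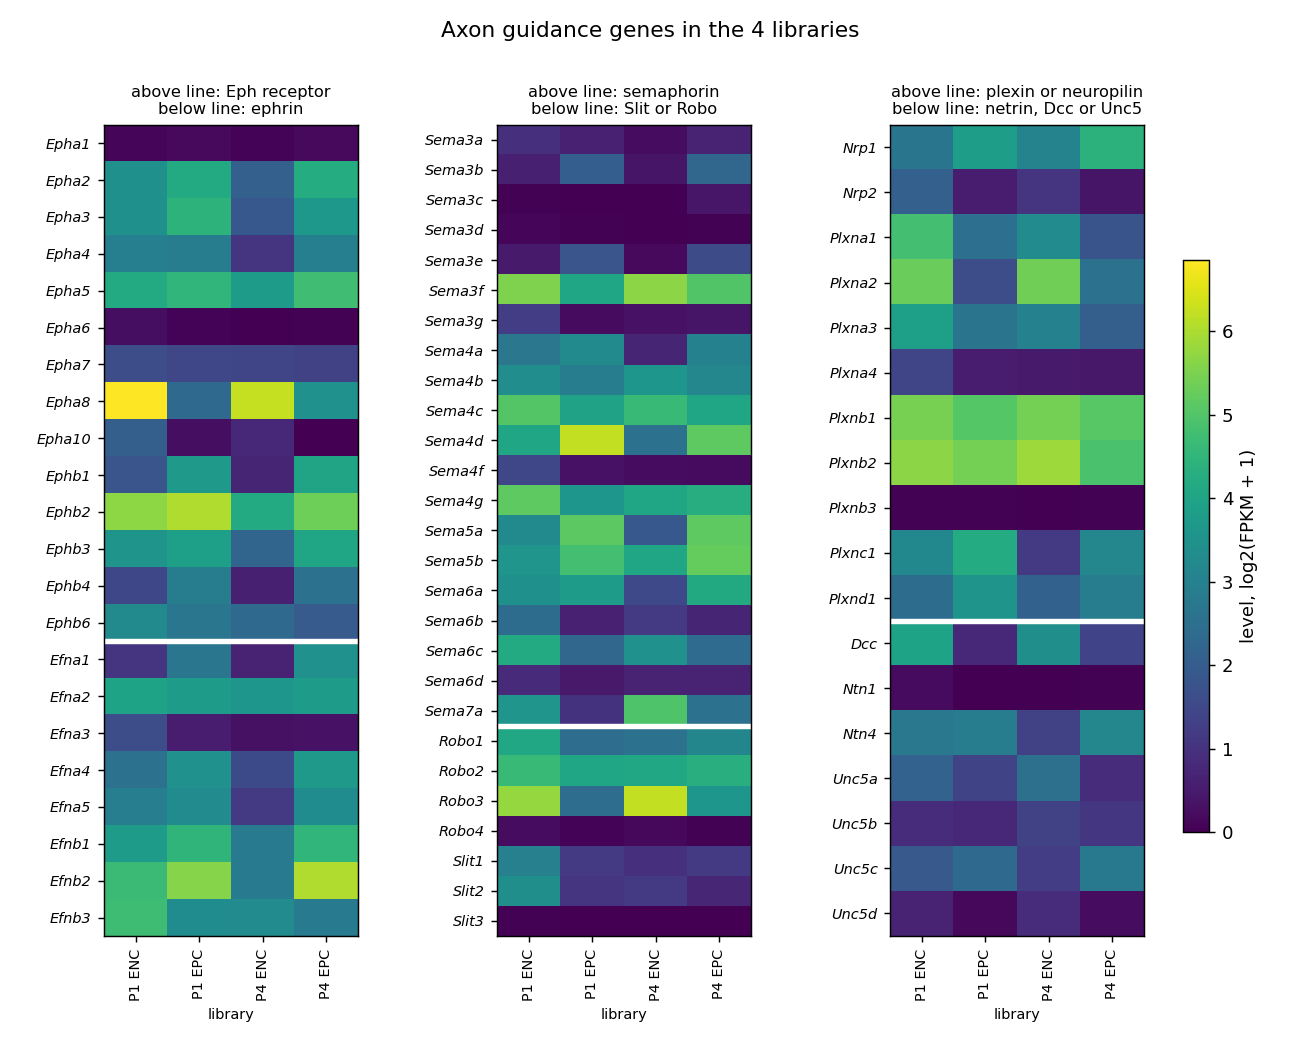
Level of each of the 67 guidance genes in the 4 libraries (columns), as log2(FPKM + 1) from dark (0) to yellow (highest). Epha8 and Robo3 are brightest in both EGFP-negative libraries, Sema4d is brightest in EGFP-positive cells at P1, and Efnb2 is brightest in them at P4.

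Between the ages, 11 members were higher in pHes1_EPCs at both P1 and P4, and 7 were lower at both. The 11 were the receptors Ephb1, Epha3, Ephb4, Nrp1 and Plxnc1 and the ligands Sema4d, Sema5a, Sema5b, Efna1, Sema3b and Sema3e. The 7 were the receptors Epha8, Plxna2, Robo3, Dcc and Plxna1 and the ligands Sema7a and Sema6c. A further 12 members were higher at P4 alone, 14 were lower at P1 alone, Plxnd1 was higher at P1 alone and Unc5a was lower at P4 alone. The remaining 21 were called at neither age, and no member was called in opposite directions at the 2 ages. Among all 21827 genes, 1007 were higher at both ages and 707 were lower at both. A further 1143 were higher at P4 alone, 776 lower at P1 alone, 324 higher at P1 alone and 477 lower at P4 alone. Neither age gave a call for 17423 genes, or for 8536 of the 12940 that reached an FPKM of 1. Only 30 genes were called in opposite directions, so such calls were rare among all genes too.

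The start regions of the 2 members with the greatest differences in each direction are shown so that the genes can be placed in the genome. They were chosen among members with an FPKM of at least 10 in the fraction where they were higher at both ages and with a single promoter in the RefSeq table. Each runs from 250 bases before to 50 bases after the RefSeq start site (table build GRCm38.p6), was found once by exact match on its chromosome in NCBI37/mm9, and is given in the 5′ to 3′ direction of the gene. The positions in NCBI37/mm9 are chr9:102256974-102257273 on the minus strand for Ephb1, chr15:32174318-32174617 on the plus strand for Sema5a, chr4:136512682-136512981 on the minus strand for Epha8 and chr1:196445773-196446072 on the plus strand for Plxna2. In each the start site is the edge of the gene's deposited locus, so the last 50 bases are the start of the first exon. Capitals mark matches on either strand to TGGGAA, the core bound by the Notch effector RBPJ, and to CACGNG, a box bound by Hes factors. No match to TAATCC, the core bound by Crx and Otx2, was in these 4 windows.
Ephb1: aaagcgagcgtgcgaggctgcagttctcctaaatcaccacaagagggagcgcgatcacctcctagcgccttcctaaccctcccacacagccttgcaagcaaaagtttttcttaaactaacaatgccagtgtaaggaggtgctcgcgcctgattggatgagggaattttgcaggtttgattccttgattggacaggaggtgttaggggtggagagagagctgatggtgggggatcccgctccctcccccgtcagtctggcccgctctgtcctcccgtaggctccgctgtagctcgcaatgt
Sema5a: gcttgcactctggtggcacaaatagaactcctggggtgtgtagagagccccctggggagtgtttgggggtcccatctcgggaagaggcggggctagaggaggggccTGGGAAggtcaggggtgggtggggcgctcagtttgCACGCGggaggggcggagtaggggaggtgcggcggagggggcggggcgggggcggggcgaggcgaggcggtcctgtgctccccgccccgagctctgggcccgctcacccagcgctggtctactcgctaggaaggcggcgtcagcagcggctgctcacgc
Epha8: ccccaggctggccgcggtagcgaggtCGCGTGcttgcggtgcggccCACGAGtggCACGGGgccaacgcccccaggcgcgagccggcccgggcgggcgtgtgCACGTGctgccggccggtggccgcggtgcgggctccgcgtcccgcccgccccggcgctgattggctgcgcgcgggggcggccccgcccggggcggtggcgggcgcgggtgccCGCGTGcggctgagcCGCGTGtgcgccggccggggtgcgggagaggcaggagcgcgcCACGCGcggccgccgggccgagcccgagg
Plxna2: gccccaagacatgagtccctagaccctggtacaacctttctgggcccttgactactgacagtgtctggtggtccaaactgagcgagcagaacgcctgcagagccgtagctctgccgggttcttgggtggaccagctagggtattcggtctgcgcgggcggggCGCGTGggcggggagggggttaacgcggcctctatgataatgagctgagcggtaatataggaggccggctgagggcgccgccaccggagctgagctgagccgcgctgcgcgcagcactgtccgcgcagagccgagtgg

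The Epha8 window had 7 matches to CACGNG and a GC content of 84.3%, the Plxna2 window had 1 match to CACGNG, the Sema5a window had 1 match to each of TGGGAA and CACGNG, and the Ephb1 window had no match to the 3 motifs. Over all 32851 promoters of the table, 27.5% held CACGNG, 25.6% held TGGGAA and 7.06% held TAATCC. Of the 67 members, 57 had promoters in the table, 73 in all, and 38.4% of these held CACGNG, 21.9% TGGGAA and 2.74% TAATCC. The members higher in pHes1_EPCs at both ages had 13 promoters, of which 5 held CACGNG, 3 held TGGGAA and 0 held TAATCC. Those lower at both ages had 6, of which 4 held CACGNG, 0 held TGGGAA and 1, that of Robo3, held TAATCC. The motifs and the rule for the promoters shown were chosen after the expression values were seen, and a match describes letters in a window and not a bound site.

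Eph receptors, the kinases that ephrins activate, stood on both sides of the comparison. At P1, 3 of the 14 were higher (21.4%) and 2 lower (14.3%), and at P4, 7 were higher (50%) and 1 was lower (7.14%). The P1 shares stand beside 10.3% and 11.5% of the genes reaching an FPKM of 1, and the P4 shares beside 16.6% and 9.15%. The shares of Eph receptors called lower were thus near those of such genes. Their summed FPKM was 237 in P1 pHes1_ENCs, 175 in P1 pHes1_EPCs, 124 in P4 pHes1_ENCs and 152 in P4 pHes1_EPCs. Epha8 alone set the direction of these sums at P1, since without it they were 122.7, 171, 48.5 and 142 (a comparison added after the values were seen). Epha8 had an FPKM of 114 in P1 pHes1_ENCs and 4.07 in P1 pHes1_EPCs, which is 28.1-fold lower in the positive cells (range 23.9 to 31.4). It had 75.2 and 10.1 at P4, a ratio of 7.46 (6.55 to 8.12). It was the most abundant guidance gene of both EGFP-negative libraries.

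Ephb1, a receptor of B-class ephrins known from the routing of ganglion cell axons at the optic chiasm, differed the other way. Its FPKM was 2.53 in P1 pHes1_ENCs and 12.1 in P1 pHes1_EPCs, and 0.620 and 15.0 at P4. Positive cells thus had 4.80-fold (4.02 to 5.81) as much at P1 and 24.1-fold as much (18.4 to 33.4) at P4, the highest P4 ratio of a named member. Exons of an antisense lincRNA overlap 152 bases of Ephb1, and as the sources used here do not state a stranded library, reads from the pair cannot be told apart.

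Other EphB receptors were also on the positive side. Ephb4 had 1.78 in P1 pHes1_ENCs and 6.37 in P1 pHes1_EPCs, and 0.510 and 4.87 at P4. Ephb2, which shares ephrin-B ligands with Ephb1 and is known for graded retinal expression, was the most abundant of the EphB receptors with 50.03 and 64.9 at P1 and 17.2 and 39.3 at P4. Its difference was 0.37 at P1 and 1.148 at P4, and at P4 it was below 1 under each of the 3 rescalings, between 0.89 and 0.97. Ephb3 had 10.7 and 13.7 at P1 and 3.68 and 15.6 at P4, and it was thus higher at P4 alone. Ephb6, which lacks kinase activity, was called at neither age and was the one EphB receptor with less in the positive cells at both ages.

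Among the EphA receptors, Epha3 had an FPKM of 9.81 in P1 pHes1_ENCs and 20.7 in P1 pHes1_EPCs, and 2.72 and 11.6 at P4. Its P1 difference of 1.01 lay just inside the threshold and was 0.97 when the libraries were scaled to the same total. Epha2 had 9.93 and 17.1 at P1 and 3.29 and 18.02 at P4. Epha4, which binds ephrins of both classes, had 6.75 and 6.42 at P1 and 1.08 and 6.76 at P4. Both were called higher at P4 alone, and in both the P4 negative library was the lowest of the 4. Epha10 was on the negative side at P1, with 3.24 and 0.184, and at P4 it had 0.722 in pHes1_ENCs and was listed at 0 in pHes1_EPCs. The line of Epha10 in the files spans 124559029 to 124563752 on chromosome 4, which is a small part of the annotated gene. Epha5 and Epha7 were called at neither age, and Epha1 and Epha6 did not reach an FPKM of 1.

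Ephrins, the membrane-bound ligands of the Eph receptors, summed to an FPKM of 92.3 in P1 pHes1_ENCs, 116 in P1 pHes1_EPCs, 36.3 in P4 pHes1_ENCs and 137 in P4 pHes1_EPCs. Of the 8 ephrins, 1 was higher (12.5%) and 2 were lower (25%) at P1, and 5 were higher (62.5%) and 0 lower at P4. The P1 shares stand beside 10.3% and 11.5% of the genes reaching an FPKM of 1, and the P4 shares beside 16.6% and 9.15%. Efnb2, a transmembrane ephrin, was the most abundant in positive cells, with 24.4 in P1 pHes1_ENCs and 48.0 in P1 pHes1_EPCs, and 6.03 and 64.5 at P4. The ratio was 1.97 (1.79 to 2.15) at P1, just outside the threshold on the log2 scale at 0.95, and 10.7 (9.13 to 12.03) at P4. Efnb2 was the most abundant guidance gene of P4 pHes1_EPCs.

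Efna1, a ligand anchored in the membrane by a lipid, was the only ephrin higher at both ages, with 1.05 and 5.45 at P1 and 0.583 and 9.98 at P4. Its ratio was 5.18 (3.31 to 8.84) at P1 and 17.1 (10.2 to 36.4) at P4. Efna4 had 5.01 and 10.1 at P1 and 1.92 and 11.9 at P4. Efna5, known as a repellent for ganglion cell axons that carry EphA receptors, had 6.63 and 8.81 at P1 and 1.26 and 9.10 at P4. Efnb1 had 12.9 and 21.3 at P1 and 6.20 and 21.9 at P4. These 3 genes were higher at P4 alone, and the 2 positive libraries of each were within 1.176-fold of each other. Exons of an antisense lincRNA overlap 168 bases of Efna4.

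The remaining ephrins did not share this pattern. Efnb3, a B-class ephrin, had 25.4 and 9.05 at P1 and 8.88 and 6.12 at P4, and it was lower in the positive cells at P1. Efna3 had 2.06 and 0.447 at P1 and 0.230 and 0.264 at P4. Its P1 call was lost under quantile normalization (-0.86), and antisense exons overlap 344 of its bases. Efna2 differed least, with 14.8 and 12.8 at P1 and 11.2 and 12.9 at P4, and both its ratio ranges included 1.

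**Figure D2:**
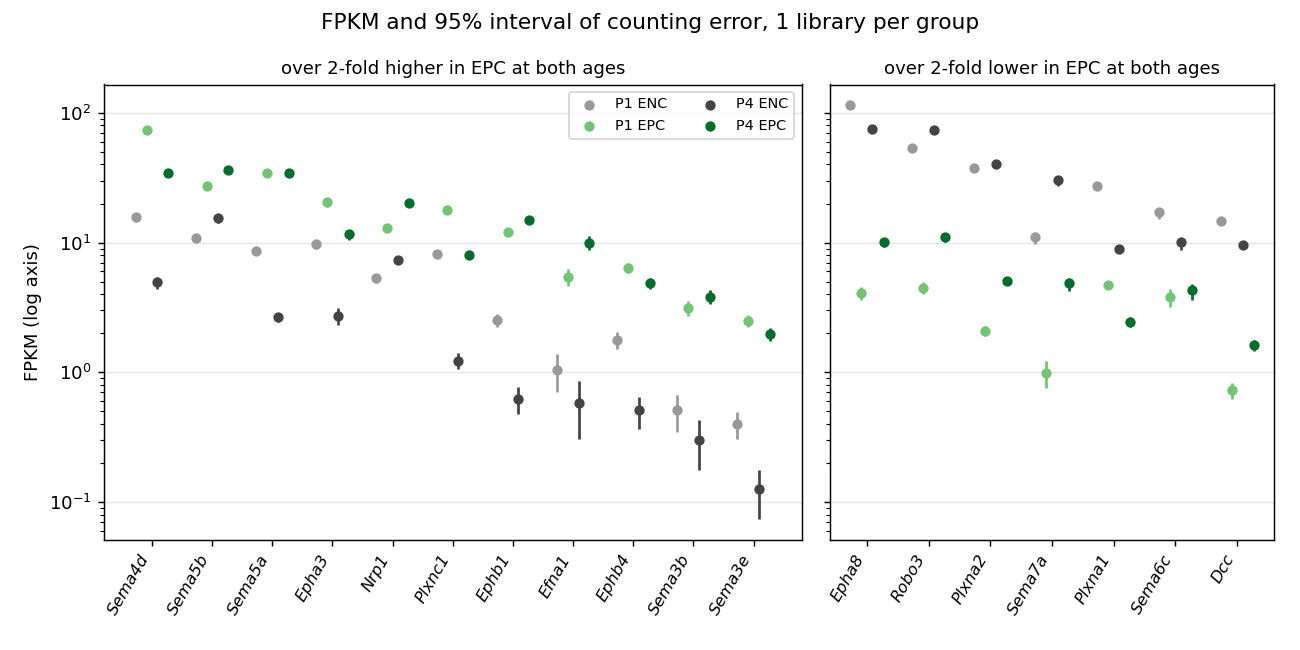
FPKM (log axis) of the 11 guidance genes more than 2-fold higher (left) and the 7 more than 2-fold lower (right) in EGFP-positive cells at both ages, with 1 point per library and bars for the 95% interval of counting error. In each gene both green points (positive cells) lie on the same side of the grey or black point (negative cells) of their age, and the positive cells at P1 and P4 are close to each other in Sema5a.

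Semaphorins, the secreted or membrane-bound ligands of plexins, were divided between the fractions. Of the 20, 5 were higher in pHes1_EPCs (25%) and 8 lower (40%) at P1, and 7 were higher (35%) and 2 lower (10%) at P4. The P1 shares stand beside 10.3% and 11.5% of the genes reaching an FPKM of 1, and the P4 shares beside 16.6% and 9.15%. Their summed FPKM differed little between libraries, at 209 in P1 pHes1_ENCs, 216 in P1 pHes1_EPCs, 170 in P4 pHes1_ENCs and 219 in P4 pHes1_EPCs. Sema4d, a transmembrane ligand of Plxnb1, had the highest level in positive cells at P1, with 15.7 in P1 pHes1_ENCs and 73.9 in P1 pHes1_EPCs. It had 4.97 and 34.3 at P4, and the ratio was 4.72 (4.26 to 5.09) at P1 and 6.90 (5.82 to 7.88) at P4. Sema4d was also one of the 2 members whose level in pHes1_EPCs was called lower at P4 than at P1.

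Sema5a and Sema5b, transmembrane semaphorins with thrombospondin repeats that are known to repel the neurites of retinal neurons in the inner plexiform layer, were both higher in positive cells at both ages. Sema5a had 8.61 in P1 pHes1_ENCs and 34.1 in P1 pHes1_EPCs, and 2.67 and 34.3 at P4, and its ratio was 3.96 (3.65 to 4.24) at P1 and 12.8 (11.5 to 14.2) at P4. Sema5b had 10.8 and 27.2 at P1 and 15.4 and 36.5 at P4. Unlike Sema5a, Sema5b had a higher FPKM in the negative cells at P4 than at P1, and its P4 difference of 1.20 was 0.94 when the libraries were scaled to the same total.

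Among the secreted class 3 semaphorins, Sema3b had 0.510 in P1 pHes1_ENCs and 3.12 in P1 pHes1_EPCs, and 0.304 and 3.83 at P4. Sema3e, which signals through Plxnd1, had 0.398 and 2.51 at P1 and 0.126 and 1.97 at P4. Both were low genes with wide ranges, and the P4 ratio was 12.6 (7.77 to 24.3) for Sema3b and 15.6 (9.80 to 29.5) for Sema3e. Sema3f, a ligand of Nrp2 and the most abundant semaphorin of the P4 negative cells, had 44.7 and 15.6 at P1 and 49.9 and 30.6 at P4 and was lower in positive cells at P1. Sema3g was called lower at P1 without reaching an FPKM of 2, and Sema3a, Sema3c and Sema3d stayed under 1.

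The membrane-bound Sema4a and Sema6a were higher at P4 alone. Sema4a, known for a role in photoreceptor maintenance, had 5.53 and 8.49 at P1 and 0.622 and 7.05 at P4, with a P4 ratio of 11.3 (7.87 to 17.8). Sema6a, a ligand of Plxna2 and Plxna4, had 9.82 and 12.8 at P1 and 1.85 and 16.8 at P4, with a P4 ratio of 9.06 (7.63 to 10.8). In both genes the P4 negative library stood apart as the lowest, and the other libraries lay between 5.53 and 16.8.

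Sema7a, the semaphorin anchored by a lipid, was lower in positive cells at both ages. It had 10.95 in P1 pHes1_ENCs and 0.993 in P1 pHes1_EPCs, and 30.2 and 4.90 at P4, and the negative cells thus had 11.03-fold (7.96 to 15.8) and 6.17-fold (5.13 to 7.23) as much. Sema6c had 17.2 and 3.80 at P1 and 10.1 and 4.29 at P4. Sema7a was the one member called higher at P4 than at P1 in both fractions.

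In all, 4 semaphorins were lower in positive cells at P1 alone and had an FPKM of at least 2, Sema3f among them. Sema6b had 4.35 in P1 pHes1_ENCs and 0.539 in P1 pHes1_EPCs, and 1.26 and 0.643 at P4. Sema4c had 31.2 and 14.3 at P1 and 24.2 and 15.3 at P4. Sema4g had 34.7 and 11.2 at P1 and 15.6 and 18.3 at P4, so that its order at P4 was the reverse of that at P1 as deposited (difference 0.21) but not with the same total (-0.07). Sema4f was called lower at P1 below an FPKM of 2, and Sema4b and Sema6d were called at neither age.

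Plexins and neuropilins, the receptors of semaphorins, differed by class. The 4 class A plexins, which are partners of neuropilins and receptors of class 6 semaphorins, had less FPKM in positive cells at both ages, and their sum was 80.2 in P1 pHes1_ENCs, 12.4 in P1 pHes1_EPCs, 56.8 in P4 pHes1_ENCs and 11.04 in P4 pHes1_EPCs. Plxna2 had 37.8 and 2.08 at P1 and 40.4 and 5.03 at P4, which is 18.2-fold (16.2 to 20.2) and 8.03-fold (7.32 to 8.69) lower in positive cells. Plxna1 had 27.1 and 4.71 at P1 and 8.97 and 2.45 at P4, and antisense exons overlap 970 of its bases. Plxna3 had 13.6 and 5.19 at P1 and 6.99 and 3.20 at P4, and it was called lower at P1 alone, since its P4 difference was -0.93. Plxna4 had at most 1.69 and was called at neither age.

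Class B plexins differed less than each class A plexin at P1, and less than Plxna1 and Plxna2 at P4. Plxnb2 had 49.8 in P1 pHes1_ENCs and 41.6 in P1 pHes1_EPCs, and 57.0 and 28.6 at P4. Its P4 difference of -0.97 was beyond the -0.93 of Plxna3 and the -0.06 of Plxna4. Plxnb1, the receptor of Sema4d, was between 31.9 and 42.5 in all 4 libraries and was called at neither age, with antisense exons over 210 of its bases. Plxnb3 stayed under an FPKM of 1.

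Plxnc1, a receptor of Sema7a, was higher in the fraction in which Sema7a was lower. It had 8.24 and 17.7 at P1 and 1.23 and 8.08 at P4. Its P1 difference of 1.02 was 0.99 when the libraries were scaled to the same total. Plxnd1 had 4.36 and 10.6 at P1 and 3.36 and 6.41 at P4, with a difference of 1.11 at P1 and 0.77 at P4.

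The neuropilins, which bind class 3 semaphorins and vascular endothelial growth factor, were on opposite sides. Nrp1 had 5.31 in P1 pHes1_ENCs and 13.0 in P1 pHes1_EPCs, and 7.30 and 20.2 at P4, and a miRNA gene lies within its exons. Nrp2 had 3.28 and 0.436 at P1 and 1.07 and 0.317 at P4. Nrp2 was thus lower in positive cells at P1, and Nrp1 was higher at both ages, with a P1 ratio of 2.45 (2.14 to 2.80) and a P4 ratio of 2.77 (2.49 to 3.13). The 8 endothelial marker genes summed to 17.7, 6.97, 3.55 and 5.76 in P1 pHes1_ENCs, P1 pHes1_EPCs, P4 pHes1_ENCs and P4 pHes1_EPCs, and of them Cdh5, Emcn, Pecam1, Tek and Tie1 were at no more than 0.142 in any library. Cldn5 alone had 16.3 of the 17.7 in P1 pHes1_ENCs.

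**Figure D3:**
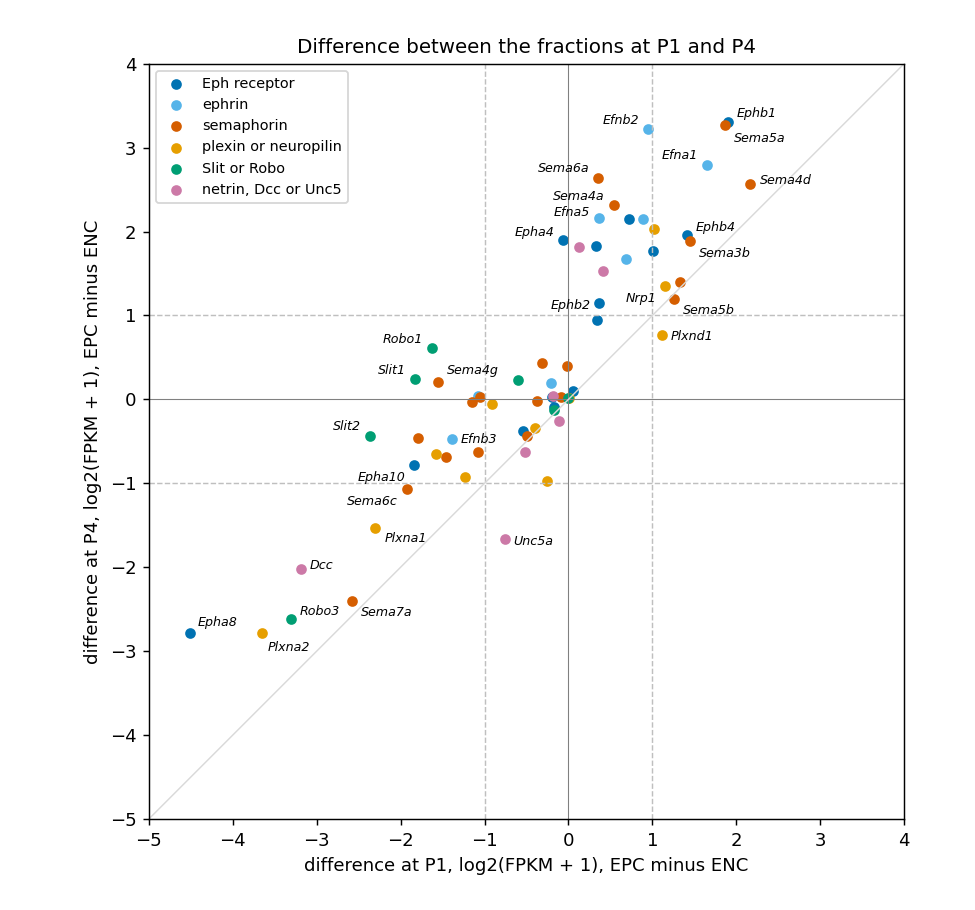
Difference between the fractions at P4 (vertical) against that at P1 (horizontal), as log2(FPKM + 1) in EGFP-positive minus EGFP-negative cells, for the 67 guidance genes coloured by role. Dashed lines mark 2-fold and the diagonal marks equal differences. Of the 67 points, 61 lie above the diagonal, and 52 to 57 do under the 3 rescalings. The same count over all genes was not taken. The median difference of the genes reaching an FPKM of 1 was 0.02 at P1 and 0.15 at P4.

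Slit1 and Slit2, secreted repellents, were lower in positive cells at P1 and low in 3 of the 4 libraries. Slit1 had 6.95 in P1 pHes1_ENCs, 1.23 in P1 pHes1_EPCs, 0.897 in P4 pHes1_ENCs and 1.25 in P4 pHes1_EPCs. Slit2 had 9.72, 1.09, 1.24 and 0.658 in the same order. The P1 negative library was thus the only one in which a Slit was above 1.25. Slit3 stayed under an FPKM of 1. The marker sums of amacrine and horizontal cells and of ganglion cells were also highest in P1 pHes1_ENCs, at 146 and 47.9. They were 89.7 and 16.9 in P4 pHes1_ENCs. Of the 9 amacrine and horizontal genes, Slc6a9 alone was higher at P4 than at P1 in pHes1_ENCs (62.6 and 19.1), and 8 were lower. The endothelial sum was 17.7 in P1 pHes1_ENCs and 3.55 in P4 pHes1_ENCs, but Cldn5 alone had 16.3 and 2.59 of these. Ets1 had 0.764 in P1 pHes1_ENCs and 3.12 in P1 pHes1_EPCs. Their part in the levels of the Slits was not tested.

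Robos, the Slit receptors, did not differ alike. Robo3, a divergent Robo known from the crossing of commissural axons at the midline, had 53.4 in P1 pHes1_ENCs and 4.48 in P1 pHes1_EPCs, and 73.3 and 11.1 at P4. The negative cells had 11.9-fold (10.1 to 13.5) as much at P1 and 6.60-fold (5.84 to 7.17) as much at P4. Robo1 had 15.9 and 4.48 at P1 and 4.83 and 7.89 at P4, so that it was lower in positive cells at P1 and not called at P4. Robo2, which guides ganglion cell axons, was called at neither age and had between 15.4 and 23.97 in the 4 libraries, and Robo4 stayed under 1.

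Dcc, the receptor through which netrins attract axons, was lower in positive cells at both ages. It had an FPKM of 14.7 in P1 pHes1_ENCs and 0.727 in P1 pHes1_EPCs, and 9.62 and 1.61 at P4. The negative cells had 20.3-fold (16.9 to 24.6) as much at P1 and 5.97-fold (5.14 to 6.95) as much at P4. The Unc5 receptors mediate repulsion by netrins, and none of them exceeded an FPKM of 5.79. Unc5a had 3.47 and 1.64 at P1 and 4.81 and 0.827 at P4 and was lower at P4, and Unc5c had 2.79 and 4.05 at P1 and 1.35 and 5.79 at P4 and was higher at P4. Unc5b and Unc5d were called at neither age. Of the netrins, Ntn1 stayed under an FPKM of 1, and Ntn4, a laminin-related netrin of basement membranes, had 5.67 and 6.30 at P1 and 1.57 and 8.002 at P4.

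From P1 to P4 the guidance genes had mostly lower levels in the negative cells. In pHes1_ENCs 26 of the 67 members (38.8%) were lower at P4 and 1 was higher, against 5.94% and 2.77% of all genes. Over the genes reaching an FPKM of 1, 10.02% were lower and 4.67% higher in pHes1_ENCs. The members lower in pHes1_ENCs numbered 34 with the same total, 26 with median of ratios and 21 with quantile normalization, and 1 was higher under each. In pHes1_EPCs 3 were higher at P4 (4.48%) and 2 were lower (2.99%), against 4.17% and 2.57% of all genes. Over the genes reaching an FPKM of 1 the shares in pHes1_EPCs were 7.04% and 4.33%. The split of the members was 1 and 8 when the libraries were scaled to the same total and 1 and 2 with median-of-ratios scaling. As deposited, the 3 higher were Epha8, Robo3 and Sema7a, which were still lower in positive than in negative cells at P4, and the 2 lower were Sema4d and Plxnc1. Age and library cannot be told apart in these comparisons. The sum of the cycling genes was 182 at P1 and 22.4 at P4 in pHes1_ENCs and 756 and 274 in pHes1_EPCs. That of the rod genes was 565 and 3290 in pHes1_ENCs and 141 and 744 in pHes1_EPCs, and Gnb1 alone had 114 of the 141.

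The comparison of the fractions at P4 shares its libraries with both comparisons of the ages, so their values are given side by side. Of the 23 members higher in pHes1_EPCs at P4, 21 had a lower FPKM in pHes1_ENCs at P4 than at P1, and 15 of them by more than 2-fold. Over all 67 members 56 had a lower FPKM in pHes1_ENCs at P4 (83.6%, against 91.3% of the 23), and 26 (38.8%) were lower by more than 2-fold. The 23 were themselves picked with the P4 pHes1_ENC value, so a low value there was part of the rule. A lower FPKM in pHes1_ENCs at P4 was also found for 9318 of all 21827 genes and for 6558 of the 12940 that reached an FPKM of 1. None of the 23 was called higher at P4 than at P1 within pHes1_EPCs, and 2 were called lower. Such calls were few in any set, since 4.48% of the 67 members and 4.17% of all genes were called higher in pHes1_EPCs. Called lower there were 2.99% and 2.57%. Efnb2, for example, was 0.248 times as high at P4 as at P1 in pHes1_ENCs and 1.34 times as high in pHes1_EPCs. For Sema6a these ratios were 0.189 and 1.31, for Epha4 0.160 and 1.05, and for Sema5a 0.310 and 1.01. Sema5b and Nrp1 were the exceptions among the 23, with ratios of 1.42 and 1.38 in pHes1_ENCs. Slit2 and Slit1, which were not higher in positive cells, had the lowest differences between the ages in pHes1_ENCs, at -2.26 and -2.07.

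**Figure D4:**
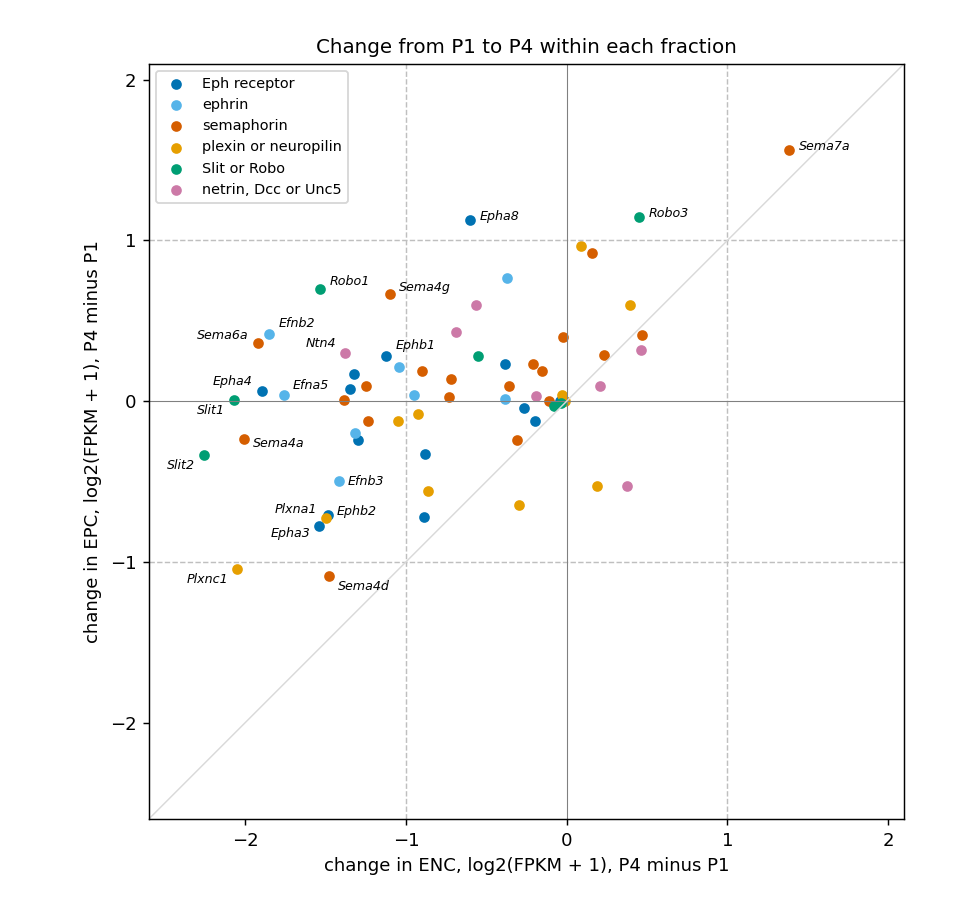
Change from P1 to P4 in EGFP-positive cells (vertical) against that in EGFP-negative cells (horizontal), as log2(FPKM + 1) at P4 minus that at P1, for the 67 guidance genes. Points left of the dashed line at -1 are the 26 members more than 2-fold lower at P4 in negative cells, and 3 points lie above the line at 1 for positive cells.

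Other genes of the guidance pathways were examined as lists set by symbol. Of 30 other cues, receptors and co-receptors, 5 were higher and 7 lower in pHes1_EPCs at P1, and 11 were higher and 6 lower at P4. As shares of the list, 16.7% were higher and 23.3% lower at P1, beside 6.1% and 6.79% of all genes, and 36.7% were higher at P4, beside 9.85% of all genes. At P4 6 of the 30 were lower, where 5.42% of all genes were. Of the 30, 25 reached an FPKM of 1. Over all genes that did, 10.3% were higher and 11.5% lower at P1, and 16.6% and 9.15% at P4. Ntng2, a netrin-G held on the membrane, had 62.9 in P1 pHes1_ENCs and 3.64 in P1 pHes1_EPCs, and 99.0 and 17.0 at P4. The adhesion molecule L1cam had 15.8 and 1.38 at P1 and 9.91 and 1.33 at P4. Kdr, a vascular endothelial growth factor receptor that can pair with Nrp1, had 46.9 and 209 at P1 and 12.01 and 189 at P4. As with the members, genes of both directions stood among the most different of the list.

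Of 40 cytoplasmic effectors of guidance receptors, 1 was higher and 9 were lower in pHes1_EPCs at P1, and 11 were higher and 5 lower at P4. The 2.5% higher at P1 is below the 6.1% of all genes, and the 22.5% lower at P1 stands beside 6.79%. At P4 27.5% of the list were higher, beside 9.85% of all genes, and 12.5% were lower, beside 5.42%. Of the 40 effectors, 38 reached an FPKM of 1. Over all genes that did, 10.3% were higher and 11.5% lower at P1, and 16.6% and 9.15% at P4, so the share lower at P4 was near that of such genes. Dpysl3, a collapsin response mediator of growth cones, had 114 and 12.9 at P1 and 134 and 24.2 at P4. Chn1, a Rac-inactivating protein that acts in EphA signalling, had 16.9 and 5.90 at P1 and 32.5 and 12.2 at P4. Dock1, a Rac activator that acts with Dcc, had 2.31 and 9.54 at P1 and 0.576 and 7.01 at P4 and was the one effector higher at both ages.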

How the data were processed

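RNA of 4 libraries of sorted retinal cells was analysed. Reads were single-end and 36 bases long. Per the labels and methods, the authors used TopHat 2.0.8b on NCBI37/mm9 with at most 50 alignments kept per read, and Cufflinks 2.1.1 then gave the deposited FPKM, each with a 95% interval and a status. Libraries were made from random-primed cDNA, and whether they kept strand is not given in the sources used here. Read counts were not used, so the depth is unknown, but 1 read was worth nearly the same FPKM in all libraries (up to 1.08-fold apart). The half-width of the interval was 2.23% to 11.3% of the FPKM for members with an FPKM of at least 10.

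The 4 tables were joined on gene, locus and start site, since they list the same 23021 lines in different orders. Small RNAs were left out by symbol (797 lines), and 234 symbols with several lines were reduced to their most abundant line, giving 21827 genes. Each of the 67 members had 1 line, and all 268 of their values had the status OK. Levels were used as deposited, with a pseudocount of 1 before log2, which understates the difference of low genes. Members were named with their values where they reached an FPKM of 2 in any library and had a difference beyond 1 or -1 at either age (44 genes), or the highest FPKM of their family, and Epha3 was named in any case (46 in all). Of the pathway lists, the 3 genes with the greatest smaller difference of the 2 ages and an FPKM of at least 5 were named. The members, the lists and the rules were chosen with earlier results of these data known. Of the 11 symbols listed for amacrine and horizontal cells, 2 were not matched. Exon overlaps come from a GENCODE annotation of NCBI37/mm9, and 13 members had one.

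The counts and medians were recomputed under 9 alternatives, which were a pseudocount of 0.1, ratios without a pseudocount, a floor of FPKM 1, 3 rescalings (same total, median of ratios, quantile), the status OK, intervals that do not overlap, and summed lines. The same total was set above every deposited sum, so that setting changes both the scale and the weight of the pseudocount of 1. The code for the calls was run on simulated libraries with counting error only and with known changes beyond the threshold. Those libraries held no spread between animals or sorts, so the run checks the code and not the calls made here. Python 3.11.15 with numpy 2.4.6, pandas 2.3.3 and matplotlib 3.10.9 was used.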

Additional observations from a re-analysis of the deposited data

Results flagged for a closer look

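In 4 guidance genes the difference between the fractions had opposite signs at the 2 ages, with both ratio ranges excluding 1. On the log2(FPKM + 1) scale, pHes1_EPCs minus pHes1_ENCs, Robo1 differed by -1.62 at P1 and by 0.61 at P4. It was -0.60 and 0.23 for Robo2, the other Slit receptor of this kind. It was -1.55 and 0.21 for Sema4g, and -0.32 and 0.44 for Sema3a, which had an FPKM under 1 in every library. With the libraries scaled to the same total the P4 differences of Robo2 and Sema4g were -0.05 and -0.07, so these genes no longer had opposite signs, while Robo1 (0.39) and Sema3a (0.72) still did. Under median-of-ratios and quantile scaling all 4 kept opposite signs. These genes were picked by a rule set after the values were seen. With 1 library per group the difference between the ages was not tested.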

How the results depend on the processing

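Of 62 called differences of the named members, 5 lost the call under at least 1 of the 9 alternatives and none changed sign. They were Epha3 at P1 (0.97) and Plxnc1 at P1 (0.99) with the same total, Sema5b at P4 (0.94) with the same total, Ephb2 at P4 (0.89 with the same total, 0.95 with median of ratios, 0.97 with quantile normalization) and Efna3 at P1 (-0.86 with quantile normalization). Members higher at P4 than at P1 in pHes1_EPCs numbered 3 as deposited, 6 with a pseudocount of 0.1, 8 without a pseudocount, and 1 with the same total or with median of ratios. Members lower at P4 than at P1 in pHes1_EPCs numbered 2 as deposited, 4 without a pseudocount and 8 with the same total. Members lower in pHes1_EPCs at P4 numbered 8 as deposited and 13 without a pseudocount or with the same total. The other 64 of 72 recomputed counts were within 1.5 times the deposited count, but many of them could not have moved. The status OK and summed lines could change no count, since all 268 member values were OK and each member had 1 line. The floor of FPKM 1 could change none either, since a call needs an FPKM above 1. For intervals that do not overlap, the ranges of all members called between the fractions already excluded 1, and all 8 counts stayed within 1.5 times. Rescaling moved the median P4 difference of the genes reaching an FPKM of 1 by -0.25 (same total), -0.17 (median of ratios) and -0.19 (quantile). The cause of the moved counts was not tested.

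Medians of small families depended on the setting. The median of the netrins at P1 was -0.03 as deposited, -0.50 with a pseudocount of 0.1, -1.65 without one and -0.25 with the same total, and at P4 it was 2.32 without one against 0.93. The median of the Slits at P1 was -1.83 as deposited, -2.40 with a pseudocount of 0.1 and -2.49 without one, and that of the class 3 semaphorins at P4 was 1.97 without one against 0.40. Of 30 family medians, 7 took another sign under at least 1 alternative, so no direction is given for EphA receptors, netrins and class 3 semaphorins at P1, or for neuropilins, Robos, class 4 semaphorins and Slits at P4. A median was counted as moved when it left its 95% binomial interval, which happened in 7 of 240 cases. That interval was chosen after the values were seen, in place of a narrower one from the members' counting bounds that 77 of 240 left, and for the 12 of 15 families with under 6 members it is their whole range. Medians that stayed inside it are therefore no sign of stability.

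No paired analysis was possible because each group had 1 library. The alternative of intervals that do not overlap applies to counts alone and gave no value for medians or single genes. Leaving out Epha8, an alternative chosen after seeing the data, turned the log2 ratio of the summed FPKM of the Eph receptors at P1 from -0.44 to 0.48.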
